A study of Homo sapiens with 12 samples.

Results

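Genes at which H3K27ac was gained in IRF1 knockout clones of CFPAC1 were PDE3A, PLPP4, HEG1, INSYN2B, C10orf90, RAB40B, SPATA18, RHOJ, LRIG1 and SPTBN1, 10 of the 19970 protein-coding genes considered. They were picked from an earlier pass over the same peak lists, in which H3K27ac near them was listed as gained in the knockout against the WT clones. Values of knockout against WT clones are therefore given for these genes as a description, with no test. For each gene, all peaks in the gene body and within 20 kb of either end were taken (GRCh38, RefSeq gene spans), and overlapping peaks of the 12 libraries were merged into loci. This gave 166 of the 188651 loci of the whole series.

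The mark was mapped by ChIP-seq with a single antibody in human pancreatic ductal adenocarcinoma lines, with 2 libraries in each of 6 groups. The first pair came from CFPAC1 clones grown out by dilution after infection with lentiCRISPRv2 carrying Cas9 and a guide RNA against IRF1 (IRF1 KO clones 1 and 2). Their controls were CFPAC1 clones derived in the same way after infection with the vector, for which no guide is named (WT clones 1 and 2). The sample titles of the clones do not say whether they were treated with IFN-β. The uncloned MiaPaCa2 line was profiled after IFN-β at 1000 U/ml for 2 h and untreated, and so was the uncloned CFPAC1 line. Each clone library stands for a single clone, so a change shared by both KO clones cannot be told apart from differences between clones that have nothing to do with the guide. A library had 59896 to 109861 peaks over 63.61 to 94.81 Mb, with the longest list in KO clone 2, and the read depth is unknown. The loss of IRF1 itself cannot be checked from this mark, since a guide leaves the locus in place: IRF1 and its 20 kb flanks had 7533 and 8924 bp under peaks in the KO clones and 5485 and 5611 bp in the WT clones. All 8 epithelial markers were covered in every CFPAC1 group and 4 of 8 in both MiaPaCa2 groups, with CDH1, EPCAM, KLF5 and GRHL2 at 0 in MiaPaCa2.

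H3K27ac is acetylation of a lysine in the tail of histone H3. It marks active promoters, where it usually flanks a nucleosome-poor gap over the transcription start, and active enhancers. IRF1 is a transcription factor that is induced by interferons and binds interferon-stimulated response elements, mostly activating the genes it binds. IFN-β acts through its own receptor and the STAT proteins, and induces IRF1 among many other genes. The 10 genes share no single pathway: they hold a cyclic nucleotide phosphodiesterase, a lipid phosphatase, a transmembrane receptor of endothelial cells, a negative regulator of ERBB receptors, 2 small GTPases, a spectrin, 2 genes linked to p53 and a gene of little known function.

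All 10 genes had at least 1 gained locus, defined as a peak in both KO clones and in neither WT clone. Such a locus was found in 14.3% of all protein-coding genes. The genes held 21 gained loci and 3 lost ones (a peak in both WT clones and neither KO clone) among their 166. Over the whole series 1.94% of loci were gained and 1.34% were lost. Because the genes were picked on this contrast, nothing is read from these counts. In 8 of the 10 genes both KO clones had more bp under peaks than both WT clones, against 23.5% of all genes, and the exceptions were RAB40B and LRIG1. The gained loci were 373 to 2501 bp wide with a median of 831 bp, against 648 bp for all gained loci and 478 bp for all loci.

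**Figure D1:**
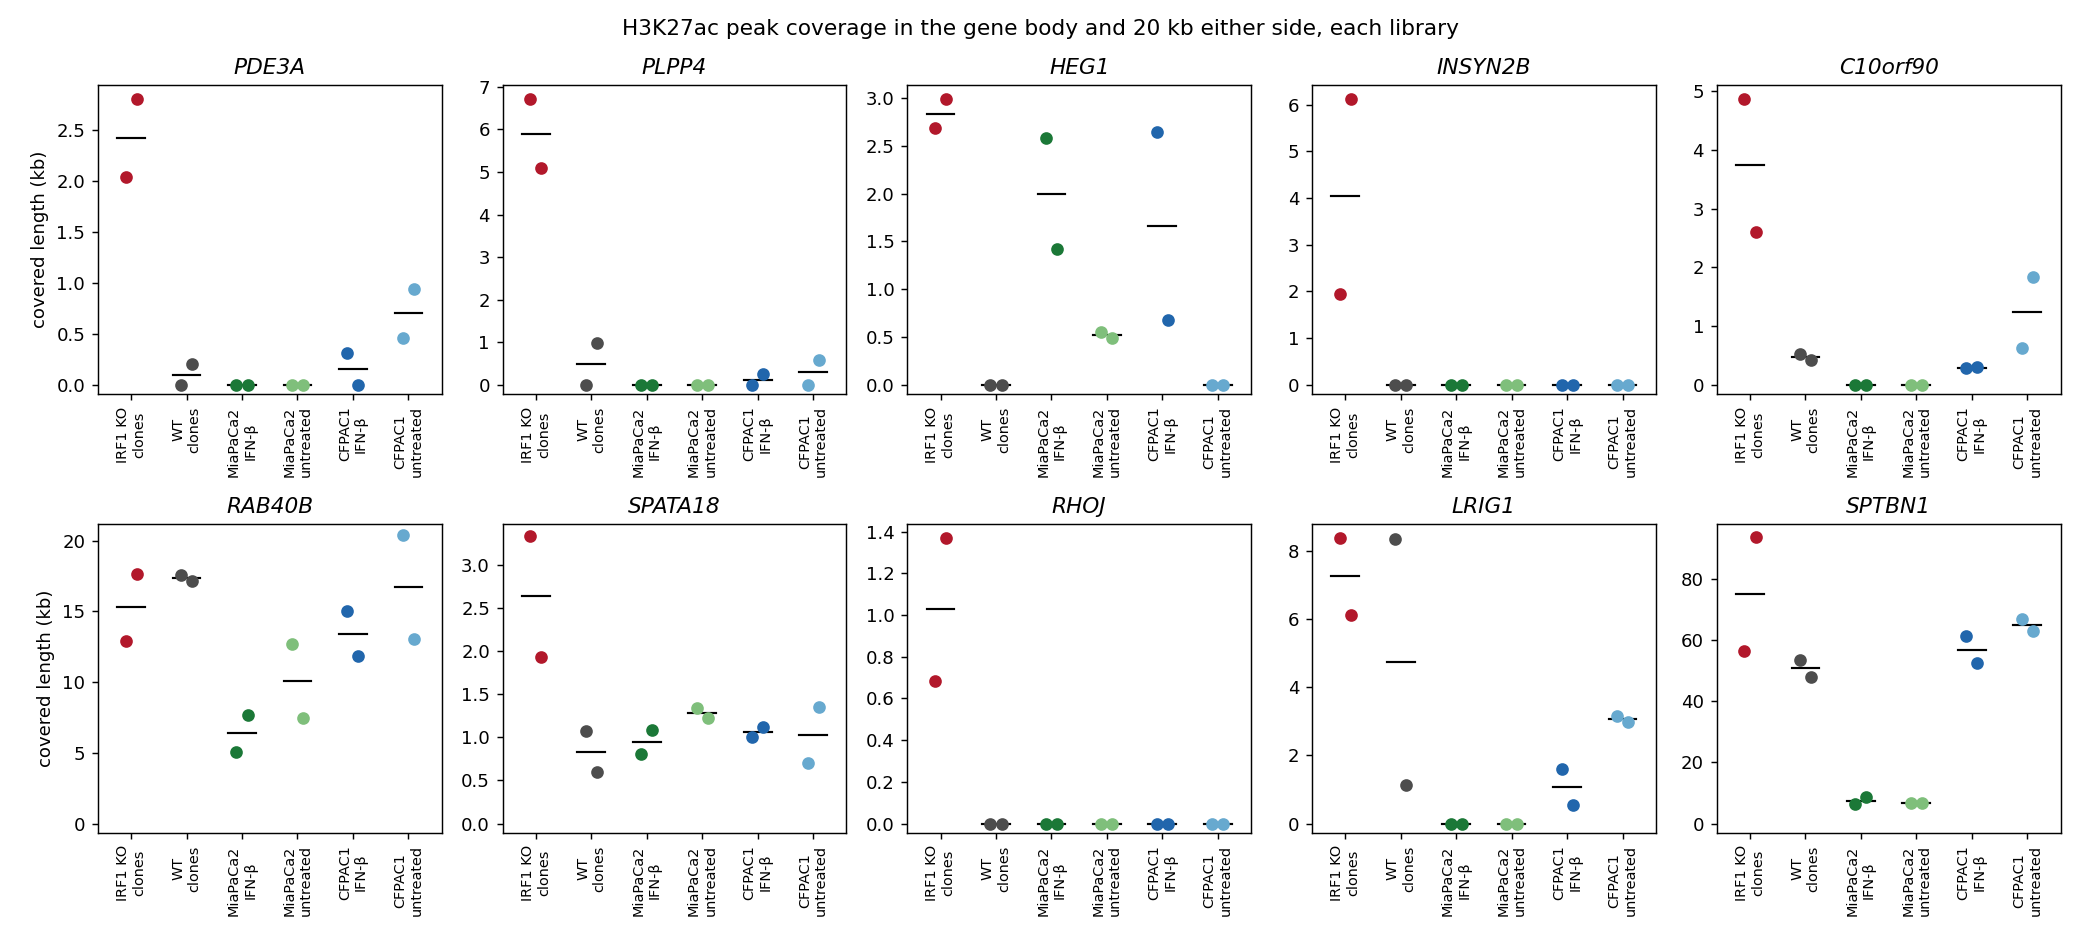
Length under H3K27ac peaks (kb, linear axes) in each gene and its 20 kb flanks. Each point is 1 library and the bar is the mean of the 2 libraries of a group. RHOJ and INSYN2B have covered bp in the IRF1 KO clones only, while the clones overlap at RAB40B and LRIG1.

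The promoters are shown first for the genes whose RefSeq promoter window (250 bases before to 50 after an annotated start, GRCh38.p14) was touched by a peak in both KO clones and neither WT clone. There were 4 such windows in PLPP4, RHOJ and LRIG1, of 14 windows in the 9 genes that matched the table, against 1.45% of all 34961 windows. For PDE3A and C10orf90 the only windows lay inside the gene, at starts chr12:20572079 and chr10:126521441, not at the gene start used elsewhere here. The gained locus over the PDE3A start is therefore not counted among these windows, and the motif counts below include both inner windows. The promoter of HEG1 is added because gained loci lay on either side of it. Sequences run 5′ to 3′ on the strand of the gene, and capitals mark Sp1 motif letters (GGGCGG or its reverse complement). The windows are chr14:63204193-63204492 for RHOJ (plus strand), chr10:120456704-120457003 and chr10:120456977-120457276 for PLPP4 (plus strand), chr3:66500005-66500304 for LRIG1 (minus strand) and chr3:125055948-125056247 for HEG1 (minus strand).
RHOJ: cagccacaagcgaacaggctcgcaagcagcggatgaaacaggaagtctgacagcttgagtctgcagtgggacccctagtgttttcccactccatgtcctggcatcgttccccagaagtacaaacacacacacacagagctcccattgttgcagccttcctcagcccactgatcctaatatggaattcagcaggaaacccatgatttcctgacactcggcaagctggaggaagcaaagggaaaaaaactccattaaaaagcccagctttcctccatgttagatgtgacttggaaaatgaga
PLPP4 first start: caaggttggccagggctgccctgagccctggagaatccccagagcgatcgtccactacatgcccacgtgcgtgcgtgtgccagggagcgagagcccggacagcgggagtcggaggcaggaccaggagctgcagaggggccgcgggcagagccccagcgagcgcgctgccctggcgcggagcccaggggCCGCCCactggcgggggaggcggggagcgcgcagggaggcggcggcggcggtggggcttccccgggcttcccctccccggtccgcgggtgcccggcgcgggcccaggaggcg
PLPP4 second start: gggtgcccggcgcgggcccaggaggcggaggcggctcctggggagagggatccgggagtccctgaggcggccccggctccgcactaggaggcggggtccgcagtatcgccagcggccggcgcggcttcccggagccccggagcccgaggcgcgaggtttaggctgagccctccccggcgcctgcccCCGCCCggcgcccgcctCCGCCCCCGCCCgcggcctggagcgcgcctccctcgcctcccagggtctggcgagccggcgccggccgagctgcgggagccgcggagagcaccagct
LRIG1 inner start: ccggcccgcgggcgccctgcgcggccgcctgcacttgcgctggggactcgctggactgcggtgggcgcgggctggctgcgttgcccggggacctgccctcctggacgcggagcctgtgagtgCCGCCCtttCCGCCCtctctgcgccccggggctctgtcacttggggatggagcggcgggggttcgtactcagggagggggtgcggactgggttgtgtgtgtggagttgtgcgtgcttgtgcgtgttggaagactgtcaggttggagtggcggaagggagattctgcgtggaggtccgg
HEG1: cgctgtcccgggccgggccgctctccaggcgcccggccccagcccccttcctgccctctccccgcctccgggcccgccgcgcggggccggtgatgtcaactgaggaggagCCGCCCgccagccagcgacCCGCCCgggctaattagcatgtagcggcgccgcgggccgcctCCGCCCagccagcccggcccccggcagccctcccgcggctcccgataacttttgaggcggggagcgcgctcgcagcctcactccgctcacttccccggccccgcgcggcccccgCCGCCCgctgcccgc
The RHOJ window had 49.7% G and C, against 70.7% at LRIG1, 77.3% and 81.0% at PLPP4 and 79.7% at HEG1, and the median of all windows was 58.667%. It held none of the 6 motifs searched on both strands. Over the 14 windows of the 9 matched genes, the IRF motif (GAAA, any 2 bases, GAAA), the STAT motif (TTCNNNGAA) and the TATA motif (TATAAA) were in 0 windows, and were in 3.575%, 7.657% and 11.533% of all windows. The AP-1 motif (TGANTCA) was in 3 windows and in 7.677% of all. Those 3 windows, at C10orf90, PDE3A and the LRIG1 start chr3:66405767, had no peak in any library. The NF-Y motif (CCAAT) was in 4 windows and in 34.564% of all, and none of those 4 windows was gained. The Sp1 motif was in 10 windows and in 45.03% of all. Where the letters run on, its matches abut at the second PLPP4 start and overlap at SPATA18. A match is a description of letters only, and several windows of 1 gene overlap.

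RHOJ, a small GTPase of the CDC42 subfamily with a known role in endothelial cells, had the simplest pattern: a single locus in its whole 129066 bp window. The locus (chr14:63203620-63204989) lay over the start and covered all 300 bases of the promoter window in both KO clones. It measured 686 and 1370 bp in the KO clones and 0 bp in the WT clones and in all 8 libraries of uncloned cells. The authors' fold, which sets a peak's summit against the local background of its own library, was 8.902 and 12.883 in KO clones 1 and 2. These peaks ranked above 68.042% and 91.611% of the peaks of their own lists by fold.

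PLPP4, a phospholipid phosphatase that removes phosphate from phosphatidic acid and related lipids, had 5 gained loci, the most of any of the 10 genes. It had 6710 and 5092 bp under peaks in the KO clones, 0 and 993 bp in the WT clones, 0 bp in all 4 MiaPaCa2 libraries, 0 and 242 bp in IFN-β-treated CFPAC1 and 0 and 589 bp in untreated CFPAC1. None of the 5 loci had a peak in any other library. A locus ending at position -73 relative to the start (chr10:120456266-120456881) had folds of 7.042 and 5.017 in the KO clones. A second locus 288 bp into the gene, named after its values were seen, had folds of 8.086 and 8.751, so that the start lay in a gap between 2 peaks. The widest, 1429 bp, lay 19850 bp into the gene (chr10:120476804-120478232), with folds of 4.602 and 5.435. A further locus of 746 bp lay 3028 bp into the gene (chr10:120459982-120460727), with lower folds of 3.763 and 4.044. In the ring from 20 to 40 kb outside PLPP4, 2 of 3 loci were gained, while the same rings of the other 9 genes held 0 gained loci.

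HEG1, a transmembrane protein that anchors KRIT1 at endothelial junctions, also had peaks on both sides of its start, but these were not limited to the KO clones. It had 2682 and 2987 bp under peaks in the KO clones and 0 bp in both WT clones. In the uncloned lines it had 2580 and 1420 bp in IFN-β-treated MiaPaCa2, 556 and 493 bp in untreated MiaPaCa2, 2644 and 676 bp in IFN-β-treated CFPAC1 and 0 bp in both untreated CFPAC1 libraries. In both lines the treated libraries lay above the untreated ones. The locus inside the gene (chr3:125053554-125055550) began 447 bp after the start and had folds of 6.339 and 3.146 in the KO clones. It was present in both IFN-β-treated CFPAC1 libraries (folds 4.771 and 3.877), both treated MiaPaCa2 libraries (9.943 and 4.835) and 1 untreated MiaPaCa2 library (3.918). The locus at position -151 relative to the start (chr3:125056148-125056876) had folds of 9.574 and 5.435 in the KO clones, was present in all 4 MiaPaCa2 libraries and in 1 treated CFPAC1 library, and was absent from the WT clones and untreated CFPAC1. A locus at position -6430 (chr3:125062427-125063038) was found in the KO clones alone, with folds of 5.338 and 4.036.

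**Figure D2:**
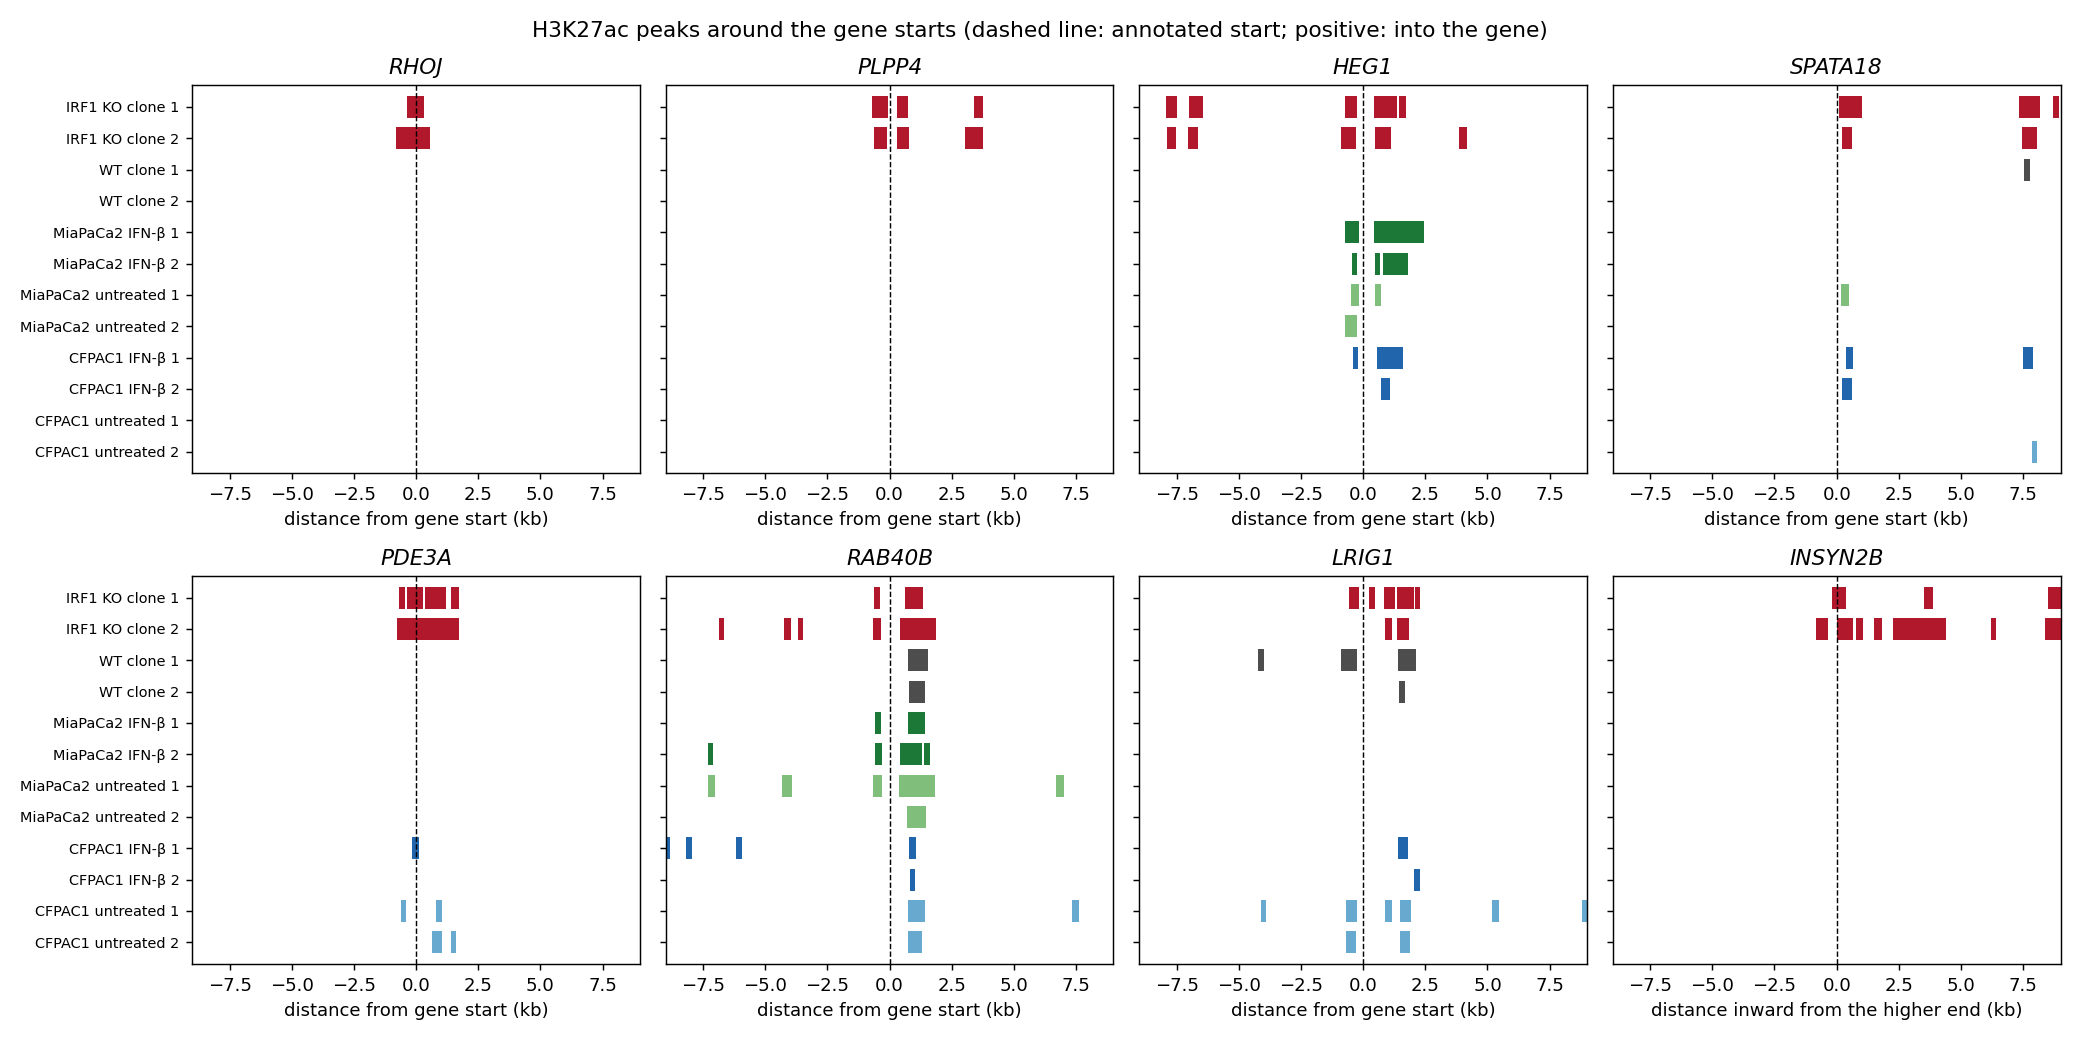
H3K27ac peaks of each library (rows) by distance from the annotated start in kb, positive into the gene; for INSYN2B, whose strand is not given in the tables used, distance runs inward from the higher-coordinate end. Each bar is 1 peak drawn to scale. The RHOJ peak spans the start, the PLPP4 and HEG1 peaks stand on both sides of it, and the SPATA18 peak begins just inside it.

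PDE3A encodes a phosphodiesterase that hydrolyses cAMP and is best known from heart muscle and platelets. Its covered length was 2031 and 2798 bp in the KO clones, 0 and 200 bp in the WT clones, 0 bp in all 4 MiaPaCa2 libraries, 315 and 0 bp in IFN-β-treated CFPAC1 and 463 and 936 bp in untreated CFPAC1. The gained locus (chr12:20367769-20370269) was the widest of the 21 and lay over the start. It held 2031 and 2495 bp of peaks in the KO clones, with folds of 10.639 and 8.806. Both untreated CFPAC1 libraries also had peaks in it, but narrower ones of 463 and 619 bp with folds of 4.39 and 4.484. At PDE3A the WT clones therefore lay below the line they came from, and the KO clones above it.

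SPATA18, also called Mieap, is a p53-inducible gene of mitochondrial quality control. It had 3337 and 1929 bp under peaks in the KO clones, 1068 and 595 bp in the WT clones, 801 and 1085 bp in IFN-β-treated MiaPaCa2, 1342 and 1221 bp in untreated MiaPaCa2, 999 and 1113 bp in IFN-β-treated CFPAC1 and 705 and 1354 bp in untreated CFPAC1. The gained locus (chr4:52051385-52052320) began 81 bp after the start. It held 936 and 389 bp in the KO clones (folds 10.326 and 9.173), 291 and 408 bp in the treated CFPAC1 libraries (6.328 and 7.209) and 0 bp in the WT clones and untreated CFPAC1. Only 1 MiaPaCa2 library, untreated, had a peak there (322 bp, fold 3.866). The pair of loci at positions -12258 and -13204, in the window shared with SGCB, was present in both KO and both WT clones. The one at position -13204 was longer in the KO clones, with 694 and 431 bp against 296 and 212 bp in the WT clones. At position -12258 the clone groups overlapped, with 630 and 497 bp in the KO clones and 531 and 383 bp in the WT clones. A locus 7343 bp into the gene, with no peak in WT clone 2, held 850 and 612 bp in the KO clones and 241 and 0 bp in the WT clones.

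SPATA18 and HEG1 were the genes whose gained locus also appeared in both IFN-β-treated CFPAC1 libraries and in neither untreated one. These were 2 of the 21 gained loci, against 1.2% of the 3659 gained loci of the series. Of all 166 loci of the 10 genes 5 had that pattern, against 1.65% of all loci. The promoter windows of both genes held 0 matches to the IRF and STAT motifs, which says only that these letters were not in those windows.

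INSYN2B is named for its relation to inhibitory synaptic factors and is otherwise little studied. It had 1949 and 6115 bp under peaks in the KO clones and 0 bp in each of the other 10 libraries. Its 3 gained loci lay toward its higher-coordinate end: chr5:169976090-169978232, chr5:169970974-169972132 and chr5:169979843-169980673, the last over that end. Their folds were 5.96, 5.805 and 2.823 in KO clone 1 and 8.361, 9.317 and 7.246 in KO clone 2, and as a rank within each list they stood above 50.427%, 48.875% and 2.425% of the peaks of clone 1 and 79.549%, 83.102% and 74.08% of those of clone 2. The window is shared with DOCK2, a guanine nucleotide exchange factor of leukocytes, and a peak there cannot be assigned to either gene.

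C10orf90, also known as FATS, encodes a protein described as stabilising p53. It had 4868 and 2609 bp under peaks in the KO clones, 530 and 423 bp in the WT clones, 0 bp in all 4 MiaPaCa2 libraries, 280 and 295 bp in IFN-β-treated CFPAC1 and 629 and 1839 bp in untreated CFPAC1. It differed from most of the others in where the gain lay: both gained loci were beyond its 3′ end, 248306 and 247737 bp from the start of the 245697 bp gene, at chr10:126421022-126422387 and chr10:126422465-126422956. Their folds were 6.735 and 3.89 in KO clone 1 and 5.145 and 4.705 in KO clone 2. Both loci also had peaks in 1 untreated CFPAC1 library (folds 4.041 and 3.697), and the one nearer the gene had a peak in 1 IFN-β-treated CFPAC1 library (fold 3.941). In the 1 Mb on either side of the window of C10orf90, 8 of 98 loci were gained (8.163%) and 0 were lost, the highest share of gained loci around any of the 10 genes. The region had 56.227 and 37.301 kb under peaks in the KO clones and 29.05 and 29.977 kb in the WT clones. The gene thus stood in a wider stretch with more length under peaks in both KO clones. The same order held around SPTBN1, given below, and around SPATA18. There the KO clones had 19.715 and 17.568 kb and the WT clones 11.025 and 15.611 kb.

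LRIG1, a transmembrane protein that lowers ERBB receptor levels and marks stem cells of gut epithelium, was more variable between the WT clones than between the KO clones. It had 8387 and 6133 bp under peaks in the KO clones, 8350 and 1131 bp in the WT clones, 0 bp in all 4 MiaPaCa2 libraries, 1593 and 539 bp in IFN-β-treated CFPAC1 and 3171 and 2986 bp in untreated CFPAC1. WT clone 1 lay between the KO clones, so the groups overlapped. The gained locus (chr3:66499857-66500265) lay 856 bp into the gene, over the inner start printed above, with folds of 12.763 and 8.673 in the KO clones. It was also present in 1 untreated CFPAC1 library, with a fold of 6.585.

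RAB40B is a Rab GTPase with a SOCS box, which joins a cullin ubiquitin ligase. Its covered length was 12913 and 17662 bp in the KO clones, 17589 and 17166 bp in the WT clones, 5066 and 7697 bp in IFN-β-treated MiaPaCa2, 12667 and 7496 bp in untreated MiaPaCa2, 15029 and 11818 bp in IFN-β-treated CFPAC1 and 20434 and 13030 bp in untreated CFPAC1. The clone groups overlapped in total length, with a lower mean in the KO clones (log2 difference -0.33), and the gain was 1 locus among 40. That locus (chr17:82699002-82699374) lay at position -304 relative to the start, with folds of 9.932 and 10.325 in the KO clones. It had no peak in any library of WT or uncloned CFPAC1, but peaks in 3 of 4 MiaPaCa2 libraries, with folds of 6.417 and 5.323 after IFN-β and 10.411 in 1 untreated library. The peak inside the gene, 379 bp after the start, was present in all 12 libraries, so at RAB40B a second peak stood on the upstream side of the start in the KO clones. The 2 lost loci lay beyond its 3′ end, 58317 and 52394 bp from the start of the 43726 bp gene, where the window is shared with WDR45B.

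SPTBN1, a non-erythroid beta-spectrin of the membrane skeleton that also binds SMAD proteins, had the most loci of the 10 genes, 64, and the longest covered length in every library except the untreated MiaPaCa2 pair, where RAB40B was longer. It had 56439 and 93693 bp under peaks in the KO clones, 53537 and 47898 bp in the WT clones, 6321 and 8588 bp in IFN-β-treated MiaPaCa2, 6665 and 6786 bp in untreated MiaPaCa2, 61222 and 52392 bp in IFN-β-treated CFPAC1 and 66793 and 63047 bp in untreated CFPAC1. KO clone 2 stood above every other library, while KO clone 1 lay below both untreated CFPAC1 libraries. The excess of KO clone 2 was not limited to the gene. In the 1 Mb on either side, outside the window, KO clones 1 and 2 had 63.664 and 113.748 kb under peaks. The WT clones had 61.719 and 59.637 kb there. Of the loci with a peak in only 1 of the 4 clones, 29 of the 46 specific to KO clone 2 were in SPTBN1, and 0 of the 10 specific to KO clone 1. The first gained locus (chr2:54457167-54458110) began 840 bp after the start, with folds of 9.077 and 9.48 in the KO clones, and had peaks in 3 of 4 MiaPaCa2 libraries and in 0 of the 4 libraries of uncloned CFPAC1. The locus over the start itself (chr2:54454331-54456444) was present in every library except WT clone 2. The second gained locus (chr2:54581012-54582546) lay 124685 bp into the gene and was present in both untreated CFPAC1 libraries, so it is a locus that the WT clones lacked.

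**Figure D3:**
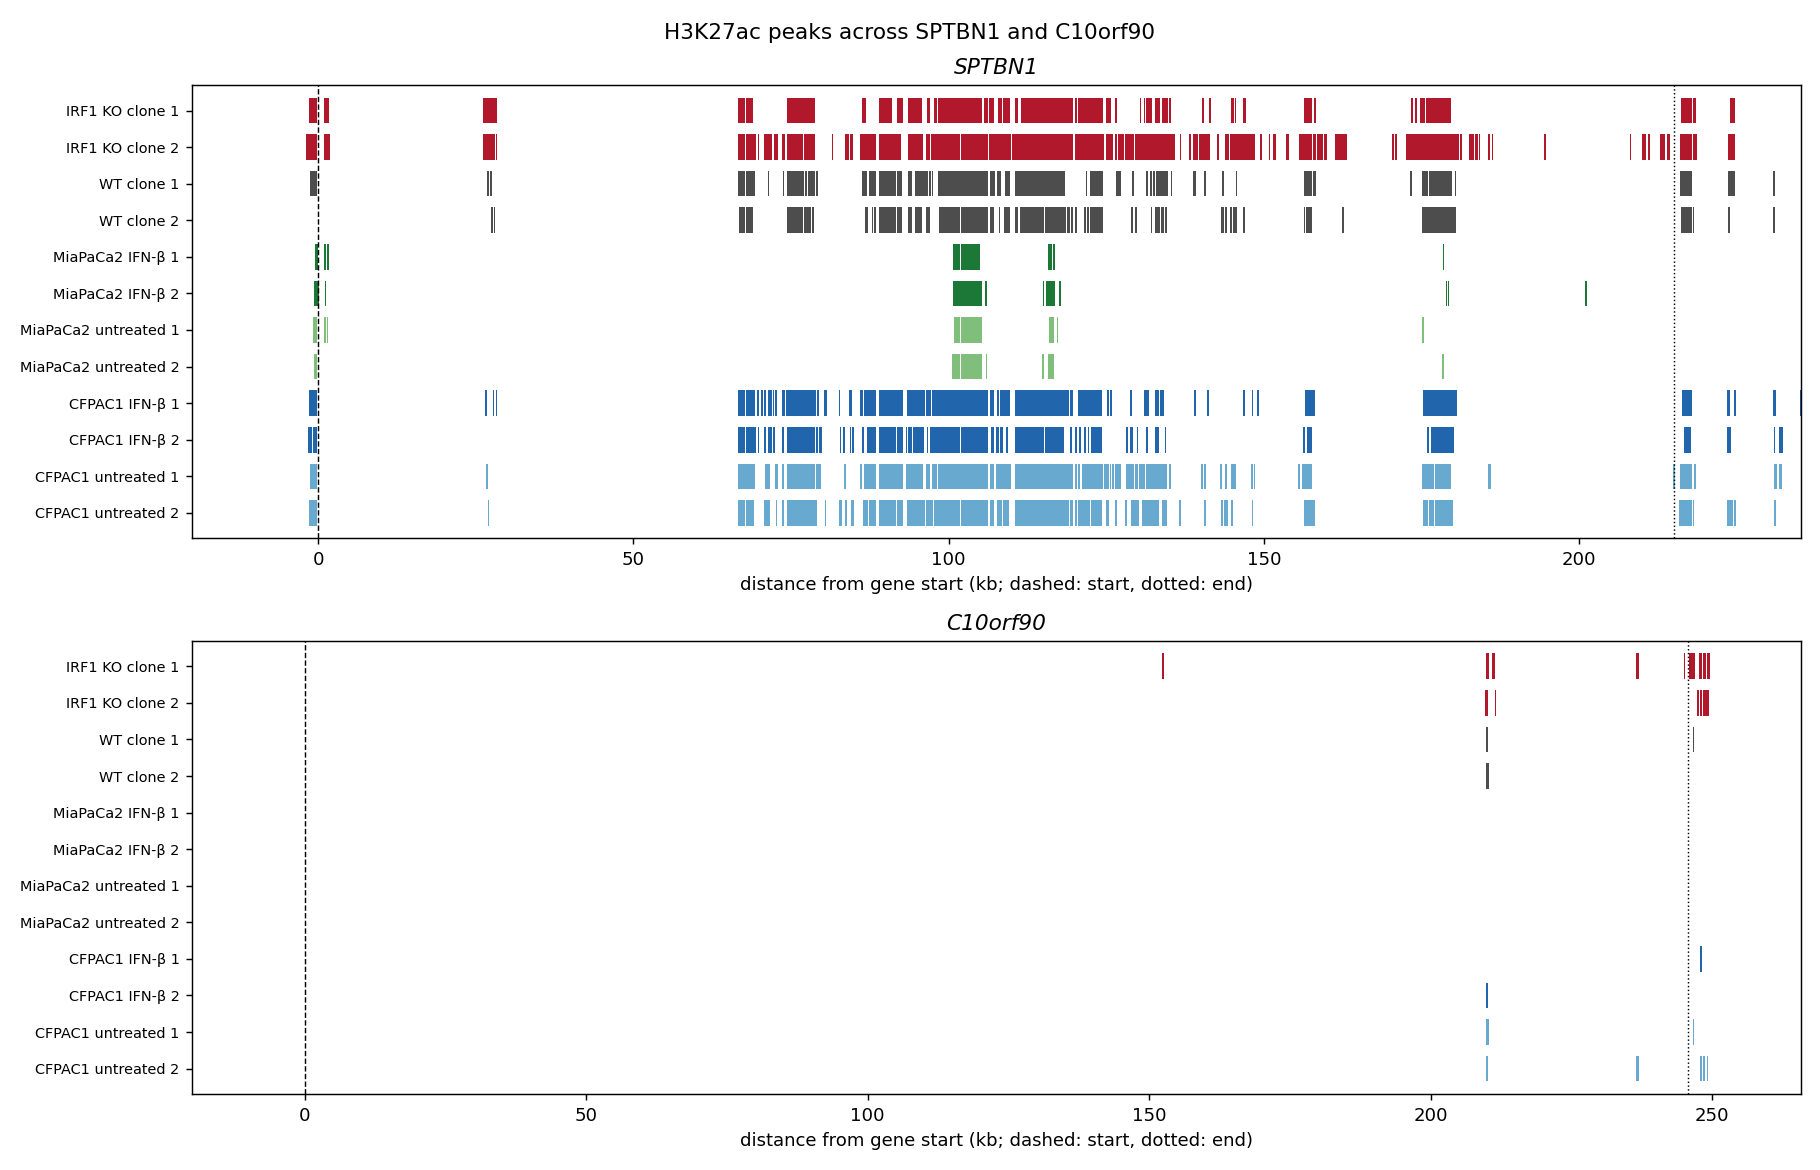
H3K27ac peaks of each library (rows) across SPTBN1 and C10orf90 with 20 kb either side, by distance from the gene start in kb. Dashed lines mark the start and dotted lines the end of the gene, and each bar is 1 peak. Peaks fill the middle of SPTBN1 in all CFPAC1 libraries, most densely in KO clone 2 (93693 bp), and cluster past the 3′ end of C10orf90 in the KO clones.

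Within 2 kb of the gene's own start lay 10 of the 21 gained loci, in 8 of the 10 genes, and 11 lay farther away or in INSYN2B, whose start was not used. C10orf90 had none within that distance. Counting any start in the promoter table, it was 13 of 21, against 19.6% of all gained loci and 15.1% of all loci of the series. In the libraries that played no part in the choice of genes, 16 of the 21 loci had no peak in either untreated CFPAC1 library, against 53.4% of all gained loci. Another 3 had a peak in 1 of them, and 2 (over the PDE3A start and inside SPTBN1) in both, against 18.4% of all gained loci. Peaks in any IFN-β-treated CFPAC1 library were found at 6 loci, against 26.0%, and in any untreated MiaPaCa2 library at 5 loci, against 24.2%. No library of uncloned cells had a peak at 11 loci, in PLPP4, HEG1, INSYN2B and RHOJ, against 35.1% of all gained loci. The gained peaks were of middling height: their folds ranged over 2.823 to 12.763 in KO clone 1 and 3.146 to 12.883 in KO clone 2, and their median rank was above 56.505% and 58.857% of the peaks of each list. At the edge of the 20 kb flank, the outermost locus inside lay 19945 bp from SPTBN1 and the nearest locus outside 21055 bp from RAB40B. Neither was gained.

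**Figure D4:**
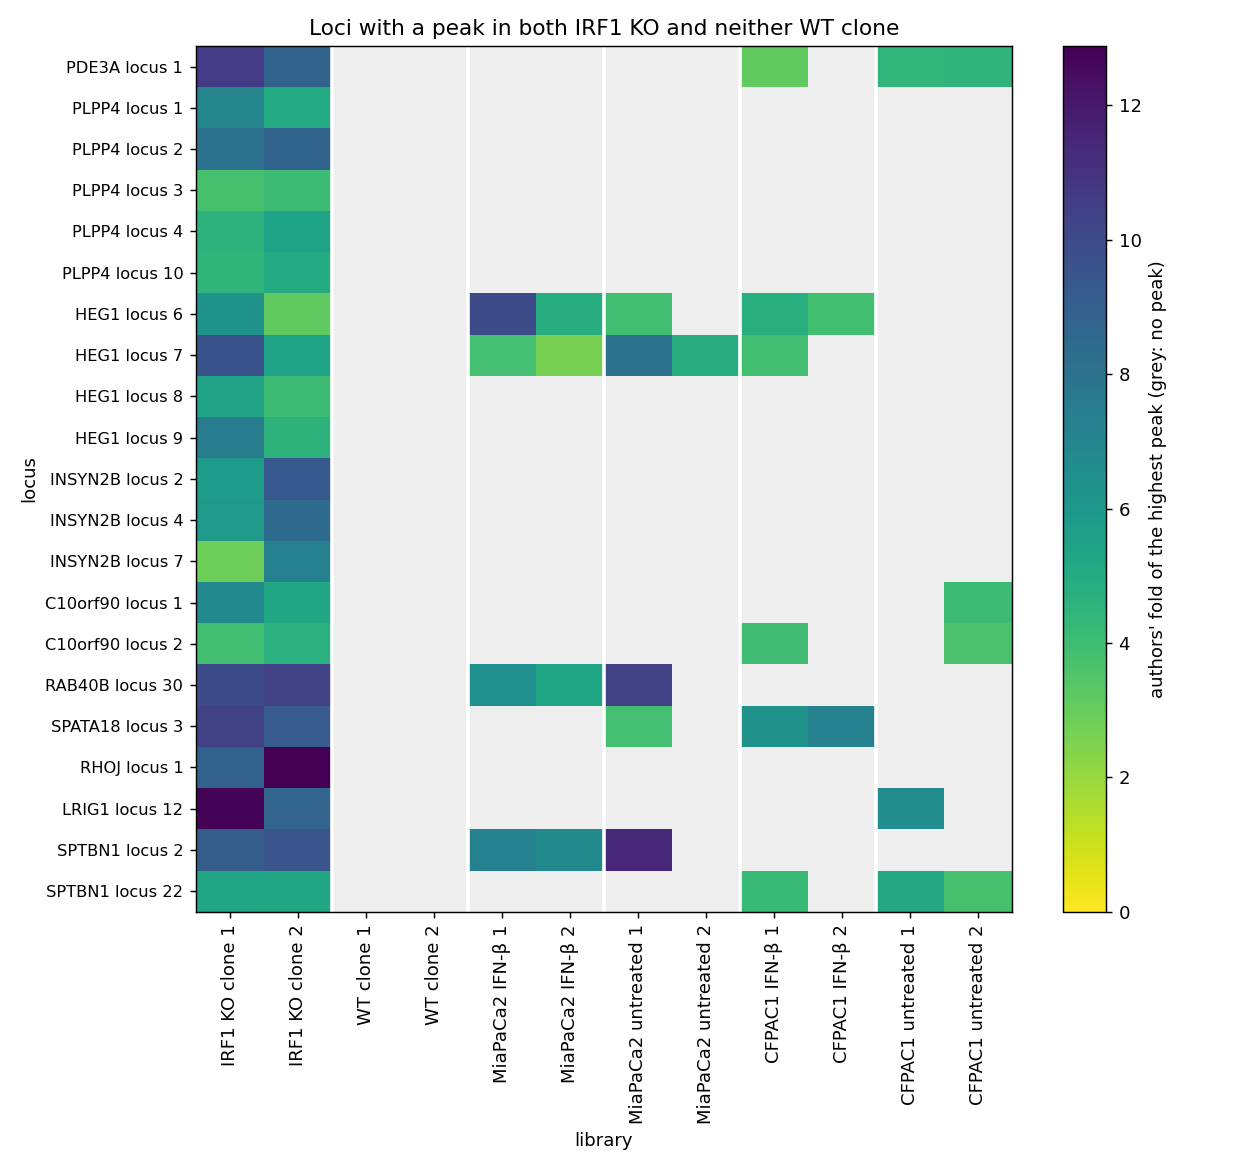
The 21 loci with a peak in both KO clones and neither WT clone (rows, numbered by position within each gene's window) in each library (columns). Colour gives the authors' fold of the highest peak in that library, each relative to its own library, and grey means no peak. Outside the KO clones 11 rows are grey throughout, and the other 10 have a peak in at least 1 library of uncloned cells.

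The uncloned lines, which did not enter the choice of genes, allow tests of IFN-β and of the line. Covered length was compared over 16929 genes as log2 of bp plus 500 bp, centred in each library, in 1 limma fit of 8 libraries with Benjamini-Hochberg adjustment over all genes. RHOJ and INSYN2B had 0 bp in these libraries and could not be tested. After IFN-β, 0 of the 8 tested genes were called in CFPAC1, where 1.88% of all genes were called, and HEG1 had the lowest adjusted p of the 8, 0.0665 in limma. HEG1 was listed at 0 in both untreated CFPAC1 libraries, so no fold is given. Its adjusted p ranged over 0.0300 to 0.301 under the alternatives, and with the second treated library left out it was 0.0459. In MiaPaCa2, PDE3A, PLPP4, C10orf90 and LRIG1 had 0 bp throughout, and 0 of the 4 remaining genes were called, against 0.691% of all genes. HEG1 differed there by 1.35 ± 0.46 (log2, SE), with an adjusted p of 0.375 in limma, and the difference between its responses in MiaPaCa2 and CFPAC1 had an adjusted p of 0.773. That difference was called for 0 of the 4 genes, against 0.0532% of all genes. SPATA18 as a whole differed by 0.23 ± 0.21 (log2, SE) in CFPAC1, with a 95% interval of -0.26 to 0.71. Its locus just inside the start nonetheless had a peak in both treated and neither untreated library of uncloned CFPAC1.

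Between the lines more genes were called over the whole set, and the share among the 8 tested genes was close to that of all genes. MiaPaCa2, usually described as a high-grade line, was set against CFPAC1, described as low-grade, both untreated: 5 of the 8 tested genes were called, against 65.4% of all genes, of which 39.9% were higher and 25.5% lower. Lower in MiaPaCa2 were SPTBN1, LRIG1, C10orf90 and PDE3A, with adjusted p of 2.12e-06, 0.000261, 0.00535 and 0.0249 in limma. HEG1 was higher in MiaPaCa2, with an adjusted p of 0.0342. SPTBN1 fell by 2.90 ± 0.14 on the log2 scale (SE), while the median of all genes was 0.28 higher in MiaPaCa2. LRIG1, C10orf90 and PDE3A were listed at 0 in MiaPaCa2, and HEG1 in CFPAC1, so their differences have no fold. SPATA18, at 0.53 ± 0.21 (log2, SE), had an adjusted p of 0.0532 in limma, RAB40B one of 0.214 and PLPP4 one of 0.525. The call of C10orf90 was lost under quantile normalization (adjusted p 0.0666 in limma) and in gene-end windows (0.0540). The calls of PDE3A and HEG1 were lost when 1 untreated library was left out. PDE3A had an adjusted p of 0.0841 or 0.0631 in limma without the first or second MiaPaCa2 library and 0.137 without the second CFPAC1 library, and HEG1 had 0.0894 to 0.108 without any 1 of the 4.

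Related genes, picked for their relation to the 10 genes with earlier results known, were compared between the KO and WT clones in a limma fit of all 12 libraries over 17281 genes. Of 75 tested genes 0 were called, against 1.05% of all genes, and 8 had an unadjusted p under 0.05. The 22 tested paralogs of the 10 genes included INSYN2A (1.02, adjusted p 0.314) and PDE3B, the other cGMP-inhibited phosphodiesterase (0.73, 0.121). PDE3B had 3441 and 3232 bp under peaks in the KO clones and 1461 and 1786 bp in the WT clones, groups that did not overlap. Among 15 further phosphodiesterases the largest were PDE2A (1.16, 0.271), PDE8B (0.66, 0.332) and PDE4D (-0.65, 0.466). Among 12 partners of HEG1 and RHOJ in endothelial cells they were ERG, an endothelial transcription factor (0.96, 0.0754), SEMA3E (-0.84, 0.469) and PLXND1 (0.63, 0.51). Among 12 ERBB receptors and their inhibitors, the setting of LRIG1, they were ERBB4 (-0.41, 0.732), ERBB2 (-0.34, 0.481) and ERBB3 (-0.31, 0.335). Among 14 p53 target genes, the setting of SPATA18 and C10orf90, they were BNIP3 (0.62, 0.338), BBC3 (0.55, 0.189) and TP53INP1 (0.50, 0.505). These pairs are log2 differences of covered length (KO minus WT clones) and limma p-values adjusted over all genes. In the uncloned lines, 0 of 74 tested related genes were called after IFN-β in CFPAC1 and 0 in MiaPaCa2, and 7 and 5 had an unadjusted p under 0.05.

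Summed coverage at markers of cell types that a pure line should lack also differed between the clones. Over all genes, 23.5% had more bp under peaks in both KO clones than in both WT clones, and 11.0% had fewer. Whether the markers differ beyond that was not tested. The 6 endothelial markers summed to 6293 to 8414 bp in the KO clones and 4105 to 5552 bp in the WT clones, with 3 of 6 at 0 in both KO clones and 4 of 6 in both WT clones. TEK and VWF, which define endothelium, were at 0 in all 12 libraries. The 6 fibroblast markers summed to 5126 to 6294 bp in the KO clones and 3857 to 3999 bp in the WT clones, with COL3A1 and DCN at 0 in every clone. The 4 leukocyte markers summed to 2343 to 2696 bp in the KO clones and 1588 to 1654 bp in the WT clones, with PTPRC at 0 in every clone. Untreated uncloned CFPAC1 had 4952 to 5727 bp at the endothelial, 2082 to 4402 bp at the fibroblast and 2429 to 2981 bp at the leukocyte markers. For leukocyte markers it thus overlapped the KO clones, and the WT clones lay below it. The 8 epithelial markers ran the other way, at 42340 to 49120 bp in the KO clones and 56166 to 60438 bp in the WT clones. Untreated uncloned CFPAC1 had 61029 to 61268 bp. The windows of KRT8 and KRT18 overlap, so peaks they share enter these sums under both genes. Within that list GRHL2 had 4830 and 299 bp in the KO clones and 7374 and 6433 bp in the WT clones, while the clone groups overlapped at KRT19, with 9625 and 9821 bp in the KO clones and 9700 and 9553 bp in the WT clones. The 3 mesenchymal markers overlapped, at 13949 to 16271 bp in the KO clones and 14010 to 14475 bp in the WT clones. The part of these shifts in the gains at HEG1, RHOJ and the other genes was not tested.

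The genes whose coverage over the 12 libraries was nearest to each of the 10 were found by the root mean square difference of log2 covered length, each gene centred on its own mean. SLC6A15, a neutral amino acid transporter gene on chromosome 12, came nearest to RHOJ at 0.045, with 699 and 1172 bp in the KO clones and 0 bp in the 10 other libraries. BASP1 came nearest to INSYN2B at 0.239, with 1734 and 3125 bp in the KO clones and again 0 bp elsewhere. SHISA3 came nearest to PDE3A at 0.265, LOC124904930 to PLPP4 at 0.326, EDA to C10orf90 at 0.413 and CSGALNACT2 to SPATA18 at 0.226. ANKS1B came nearest to HEG1 but at 0.564 was less like it than any of the other pairs, with 533 and 2544 bp in the KO clones, 0 bp in the WT clones, 2552 and 976 bp in IFN-β-treated CFPAC1 and 0 bp in untreated CFPAC1. TULP1 came nearest to RAB40B at 0.129, ISM1 to LRIG1 at 0.417 and CD200R1L to SPTBN1 at 0.146. The median difference to all genes was 0.571 to 1.565 for the 10 genes.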

How the data were processed

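H3K27ac ChIP-seq was deposited as 1 narrowPeak list per library, so replicates were not pooled. Per the submitters' processing notes, Trimmomatic 0.38, Bowtie2 2.2.6, SAMtools and MACS2 2.1.0.20150731 were used with GRCh38 (hg38); the control library, filters and depth are not given in the sources used here, so no counting interval was computed. Each deposited peak carries a fold enrichment ratio, a -log10 p and a -log10 q, made by the authors for that library alone. These were used only to describe, rank or filter peaks. Folds of different libraries are given side by side, but each refers to its own library. No difference in fold between libraries was tested.

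Peaks on chromosomes 1 to 22 and X were merged over the 12 libraries when they shared at least 1 bp. A locus counted as present in a library with any overlapping peak. Covered length is the number of bp under peaks and measures extent, not signal height, and it grows with the length of a list. Genes covered in at least 2 libraries were fitted with limma 3.58.1 (R 4.3.3) as log2(bp + 500), centred in each library, with a trended prior, and called at a Benjamini-Hochberg adjusted p under 0.05. The bulk fit used the 8 libraries of uncloned cells and the clone fit all 12. The labels do not say whether bulk libraries came from separate cultures, so p-values measure only the spread between these libraries. The code was tested on simulated data. Python 3.11.15 with pandas 2.3.3 and numpy 2.4.6 was used for the loci.

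The genes, the related lists and the rules were chosen with earlier results of these data known. Loci were described singly if gained or over a gene end, at most 3 of each kind per gene, widest first; of related genes, those called or else the 3 with the largest log2 change in each list; and for each gene the 1 gene with the nearest profile. A related gene that this rule names is not reported here. Groups came from the sample titles. Alternatives changed the pseudocount, filter, q threshold, peak number, centring, window, block and libraries.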

Additional observations from a re-analysis of the deposited data

How the results depend on the processing

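With 2 libraries per group and unknown depth, counts of calls moved with the libraries used and with other choices; causes were not tested. All 10 genes kept a gained locus under each of the 9 alternatives run. Leaving out a clone only loosens the definition of a gained locus, so none could be lost there. The genes were picked on this contrast, so nothing is read from their keeping one. The 21 gained loci became 24 to 67 with 1 clone left out, 67 without KO clone 1, and 16 to 22 under the others. No paired analysis is reported as a main result, since only 2 numbers are shared: deviations of same-numbered libraries correlated at 0.273 (IFN-β in CFPAC1), -0.054 (IFN-β in MiaPaCa2), 0.262 (lines) and -0.131 (KO against WT clones). With the replicate block, the genes called were 271 (318 without it) for IFN-β in CFPAC1, 129 (117) for IFN-β in MiaPaCa2, 11203 (11077) between lines, 0 (9) for the difference in IFN-β response and 104 (181) for KO against WT; HEG1 passed after IFN-β in CFPAC1 (adjusted p 0.0395 in limma). With the KO numbers crossed, chosen after seeing the data, 183 genes were called.
For IFN-β in CFPAC1 the 318 calls became 565 under quantile normalization and 0 to 55 with 1 library left out. For IFN-β in MiaPaCa2 the 117 calls became 77 without centring and 12 to 640 with 1 left out, 640 without the second untreated library. For the difference in response the 9 calls became 17 with a pseudocount of 100 bp, 48 without a filter, 0 at a -log10 q of at least 5, 4 with equal peak numbers, 3 without centring, 25 under quantile normalization, 19 in 5 kb gene-end windows and 0 with any library left out. For KO against WT the 181 calls became 117 without centring, 0 in the 4 clone libraries alone and 52 to 1121 with 1 left out, 1121 without KO clone 1. Without centring, higher and lower calls were 152 and 166 for IFN-β in CFPAC1 (243 and 75 centred, median of all genes -0.17), 4064 and 5143 between lines (6760 and 4317) and 88 and 29 for KO against WT (90 and 91).
Among the 10 genes, directions turned only for differences that did not pass the test. After IFN-β in CFPAC1, SPTBN1 (-0.02) became 0.012 with a pseudocount of 100 bp, 0.14 under quantile normalization and -0.13 to 0.094 with 1 library left out. SPATA18 (0.23) became -0.12 at a -log10 q of at least 5, -0.10 with equal peak numbers and -0.048 to 0.50 with 1 left out. With 1 left out, PLPP4 (-0.10) ranged over -0.63 to 0.18 and RAB40B (-0.11) over -0.46 to 0.24. RAB40B in MiaPaCa2 (-0.50) became 0.35 in gene-end windows, and its difference in response (-0.39) 0.62. PLPP4 between lines (-0.28) became 0.073 under quantile normalization. The difference in response became 0.0061 for SPATA18 at a -log10 q of at least 5 (-0.43) and 0.12 for HEG1 with equal peak numbers (-0.76). HEG1 after IFN-β in CFPAC1 passed with a pseudocount of 100 bp (adjusted p 0.0300 in limma) and with all 12 libraries (0.0468). Between lines, quantile normalization ended the calls of PDE3A (0.270), HEG1 (0.0746) and C10orf90 (0.0666), the last also lost in gene-end windows (0.0540), and HEG1 was lost with equal peak numbers (0.0676) and without centring (0.0913); SPTBN1 and LRIG1 stayed called under every alternative, and PDE3A could not be fitted at a -log10 q of at least 5 or with equal peak numbers.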
